A study of Homo sapiens with 8 samples.

Results

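The 78 genes described here encode the proteins of the mitochondrial ribosome: every protein-coding gene whose GENCODE v29 symbol starts with MRPL or MRPS followed by a digit. All 78 were among the 31721 genes of the deposited expression table. The mitochondrial ribosome, or mitoribosome, translates the few mRNAs that the mitochondrial genome encodes, all of them for subunits of the respiratory chain and the ATP synthase. Its 2 rRNAs come from the mitochondrial genome, whereas its proteins are encoded in the nucleus, made in the cytosol and imported. Part of these proteins have a counterpart in the bacterial ribosome, and the rest were added during the evolution of mitochondria. Letters in their unified names show this: uL, bL, uS and bS names mark bacterial counterparts, and mL and mS names mark proteins specific to mitochondria.

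The cells were A2780, an established human ovarian carcinoma line, and polyadenylated RNA was sequenced after 24 hours in DMSO (the solvent), in olaparib, in palbociclib, or in olaparib together with palbociclib, with 2 libraries per group. Olaparib inhibits the DNA repair enzymes PARP1 and PARP2, and palbociclib inhibits CDK4 and CDK6, the cyclin D kinases that drive cells out of G1. All groups share the same line and time, and no dose is stated in the labels used here. The labels call the libraries biological repeats without saying that they came from separate cultures, so p-values measure the spread between these libraries, which may be partly technical. Levels are in FPKM, fragments scaled by exon length and by a size factor for each library, as deposited. Recovered read totals ran from 20566158 to 34057055 per library and were highest in the 2 DMSO libraries, and the sum of FPKM over all genes fell from 295656 and 295620 in DMSO to 264453 and 271980 in the combination. The line is labelled epithelial, yet the epithelial and ovarian carcinoma markers PAX8, CDH1 and MUC16 were at or near 0, KRT8, KRT18 and EPCAM stayed at or below 1.07 FPKM, and the mesenchymal marker VIM was at 237 to 350 FPKM. Of the other cell types checked, the leukocyte marker ITGAM and the endothelial markers PECAM1, VWF and CDH5 stayed at or below 0.0323 FPKM, and the fibroblast genes LUM and DCN were at 37.9 to 49.1 and 6.04 to 7.24 FPKM in all groups.

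The DNA just before the start of these genes is shown first for 5 of them, chosen after their values were seen: MRPL11, MRPL58 and MRPL3, which were among the genes that fell most with palbociclib; MRPS34, the highest in DMSO; and MRPS25, which did not pass in any comparison. Each run is the stretch of the 250 bases before the RefSeq start (GRCh38.p14) that lies in no GENCODE v29 exon, written 5′ to 3′ on the gene's strand. Capitals mark the letters CCGGAAG, or their reverse complement, the core that transcription factors of the ETS family bind.
MRPL11, chr11:66438849-66439098, minus strand: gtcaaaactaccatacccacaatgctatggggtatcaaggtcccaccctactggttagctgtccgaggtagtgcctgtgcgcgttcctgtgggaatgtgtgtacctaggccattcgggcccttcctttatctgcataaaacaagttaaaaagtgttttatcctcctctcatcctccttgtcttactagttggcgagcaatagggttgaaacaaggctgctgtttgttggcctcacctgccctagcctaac
MRPL58, chr17:75012420-75012669, plus strand: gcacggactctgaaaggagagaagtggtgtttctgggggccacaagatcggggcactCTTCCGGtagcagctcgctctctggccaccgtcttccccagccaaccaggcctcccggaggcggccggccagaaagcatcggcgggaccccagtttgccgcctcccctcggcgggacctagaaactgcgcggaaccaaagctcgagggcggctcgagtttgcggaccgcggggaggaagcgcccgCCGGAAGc
MRPL3, chr3:131502984-131503221, minus strand: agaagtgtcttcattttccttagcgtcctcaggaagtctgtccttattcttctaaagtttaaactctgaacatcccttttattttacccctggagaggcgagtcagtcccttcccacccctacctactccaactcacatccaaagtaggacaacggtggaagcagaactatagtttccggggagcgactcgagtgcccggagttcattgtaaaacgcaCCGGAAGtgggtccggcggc
MRPS34, chr16:1773156-1773206, minus strand: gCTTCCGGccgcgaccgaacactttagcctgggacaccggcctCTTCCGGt
MRPS25, chr3:15065336-15065565, minus strand: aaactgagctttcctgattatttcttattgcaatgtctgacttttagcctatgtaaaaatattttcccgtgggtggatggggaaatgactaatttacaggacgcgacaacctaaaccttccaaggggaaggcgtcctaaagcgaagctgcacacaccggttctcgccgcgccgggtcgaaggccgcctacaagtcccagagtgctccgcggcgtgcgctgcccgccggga
The run of MRPS34 is short because the divergent gene EME2 begins 52 bases away, and it holds 2 matches. MRPL58 holds 2 matches in its run and MRPL3 holds 1, whereas MRPL11 and MRPS25 hold none.

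Promoter windows of 300 bases, 250 before to 50 after the start, were found in RefSeq for 69 of the 78 genes. The ETS core was in 29 of them (42.0%), against 10.3% of all 35116 windows and 21.2% of the windows of 8470 genes tested here. Of its 39 matches, 22 began within 60 bases before the start. AAGATGGC, the core of sites of the zinc finger factor YY1, was in 20 windows (28.99%), against 2.89% of all windows and 6.12% of those of tested genes, and 15 of its 21 matches began after the start. CGCATGCG, the core of the palindrome that NRF1 (nuclear respiratory factor 1) binds, was in 3 windows (4.35%), against 2.02% of all windows and 4.39% of those of tested genes, and the E-box CACGTG was in 6 (8.70%), against 7.26% and 10.8%. Both strands were searched, 8 windows held both the ETS and the YY1 letters, and 25 held none of the 4 motifs. The windows with and without the ETS letters belonged to genes with a median log2 fold change of -0.34 and -0.31 in palbociclib against DMSO, and for the YY1 letters the medians were -0.33 and -0.30. These matches describe letters in a window and show no binding.

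In DMSO the level of these genes spanned a wide range. MRPS34, a mitochondria-specific protein of the small subunit, stood highest at 141 and 151 FPKM in the 2 libraries. MRPL14 (uL14m, at the interface of the subunits) followed at 122 and 129 FPKM. MRPL41 had 104 and 105 FPKM and MRPS21, the bS21m protein, 101 and 102 FPKM, a small step that still exceeded the gap within each gene's libraries. MRPL18, next in the order, was at 90.5 and 89.4 FPKM, below all libraries of the 4 genes above it. At the lower end of the tested genes stood MRPL53 at 1.85 and 2.24 FPKM and MRPS17 at 3.73 and 3.54 FPKM. MRPL48, MRPS6 and MRPS11 came next, with means of 6.17, 6.18 and 6.31 FPKM, and their library values overlapped.

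Tests were run on log2(FPKM + 1) in limma over all 12443 genes with a mean of at least 1 FPKM, with Benjamini-Hochberg adjustment over all of them and a threshold of 0.05. Of the 78 genes, 73 passed that level filter: 49 of the large subunit, 23 of the small subunit, and MRPS36. Names and subunits do not match everywhere. MRPS30 and MRPS18A (mL65 and mL66) sit in the large subunit and are counted there, and MRPS36 is held to be a part of the 2-oxoglutarate dehydrogenase complex rather than of the mitoribosome, so it is counted in neither subunit.

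**Figure D1:**
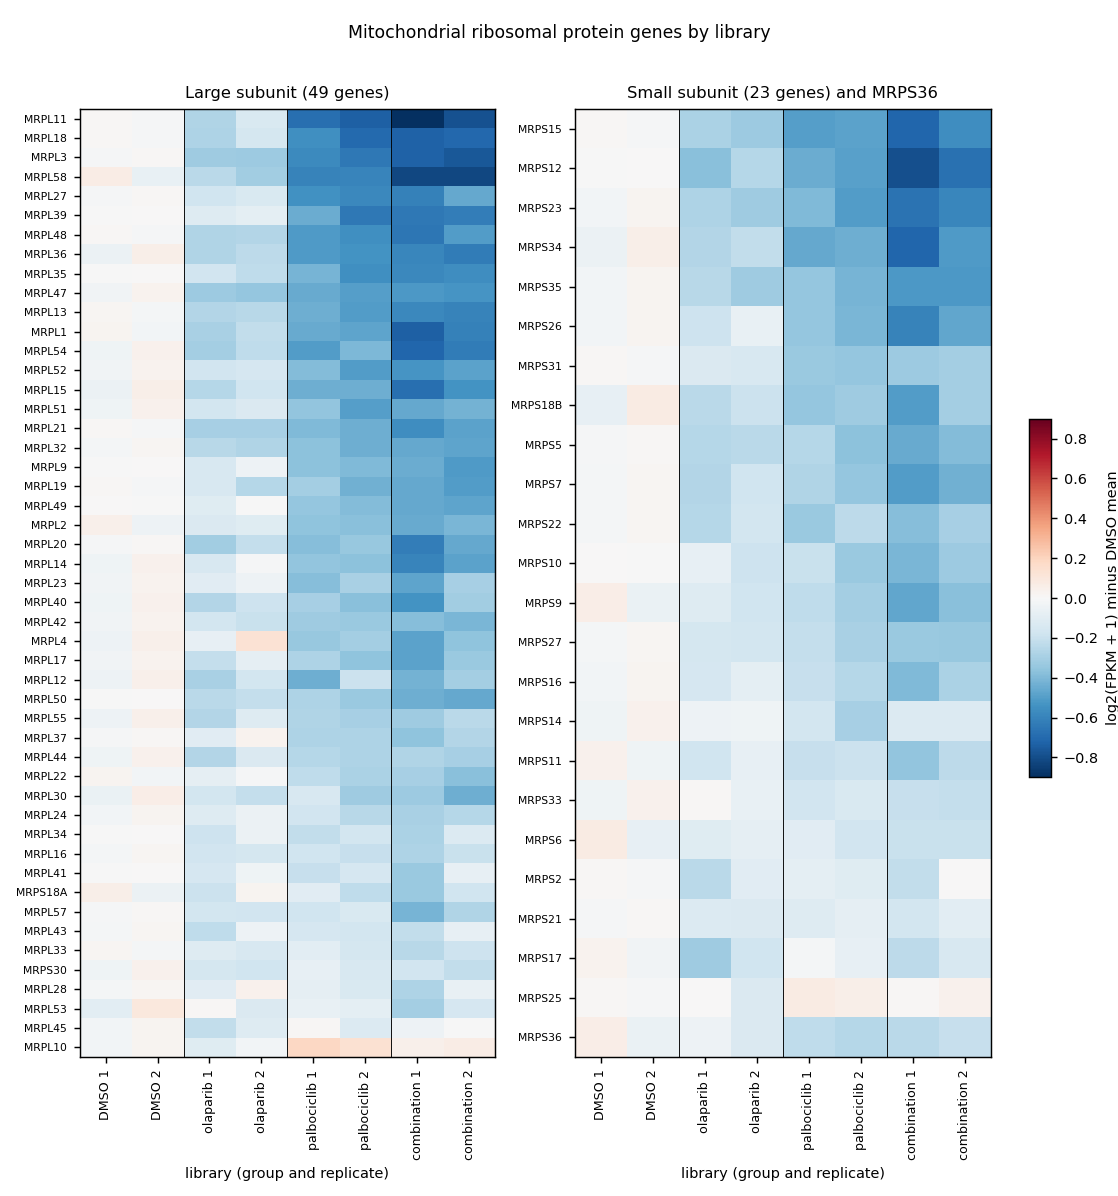
Each row is 1 of the 73 genes tested and each column 1 library; colour gives log2(FPKM + 1) minus the mean of the 2 DMSO libraries, blue for lower and red for higher, with the large subunit on the left and the small subunit and MRPS36 on the right. Rows are ordered by the mean change with palbociclib within each panel, and 57 of the 73 genes have group means that fall in the order DMSO, olaparib, palbociclib, combination.

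Palbociclib lowered most mitoribosomal protein mRNAs. Against DMSO, 60 of 73 passed as lower and 1 as higher, where 31.4% of all genes tested passed as lower and 18.7% as higher. The median log2 fold change of the 73 was -0.32, against -0.05 over all genes tested, and the range ran from -0.71 to 0.16. In 68 of the 73 both palbociclib libraries lay below both DMSO libraries, a pattern seen in 46.3% of all genes tested, and in 2 both lay above (32.5%). In bulk RNA, fewer cells that express a gene and less of its RNA per cell cannot be told apart.

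The large subunit led the falls. MRPL11 (uL11m, at the base of the stalk that receives translation factors; chromosome 11, 66435075 to 66466738, minus strand) was at 48.5 and 47.6 FPKM in DMSO and at 29.6 and 28.5 FPKM with palbociclib. The gap between the 2 groups was far wider than the gap within either. Its log2 fold change was -0.71 ± 0.06 (SE), adjusted p = 0.000125. MRPL18 (uL18m, whose bacterial counterpart binds 5S rRNA; chromosome 6, 159789812 to 159798436) went from 90.5 and 89.4 FPKM to 61.2 and 55.1 FPKM, a log2 fold change of -0.62 ± 0.06 (adjusted p = 0.000224). MRPL3 (uL3m, which reaches towards the peptidyl transferase centre; chromosome 3, 131462212 to 131502983) went from 70.7 and 71.9 FPKM to 47.6 and 45.2 FPKM, a change of -0.61 ± 0.04 (adjusted p = 5.5e-05). MRPL58, also known as ICT1, is a peptidyl-tRNA hydrolase built into the large subunit and lies on chromosome 17 (75012670 to 75021261, plus strand). It went from 36.6 and 33.2 FPKM to 22.7 FPKM in both palbociclib libraries, a change of -0.60 ± 0.05.

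The remaining genes of the 8 with the lowest fold changes were also all in the large subunit. MRPL27 (bL27m, at the peptidyl transferase centre) had 30.0 and 30.3 FPKM in DMSO and 20.4 and 19.8 FPKM with palbociclib, a log2 fold change of -0.56. MRPL39, specific to mitochondria, had 36.8 and 36.9 FPKM in DMSO and 26.8 and 23.2 FPKM with palbociclib, a change of -0.55. MRPL48 fell by 0.53 from the low level of 6.21 and 6.13 FPKM, and MRPL36 (bL36m) fell by 0.52. In each of these the palbociclib libraries lay below both DMSO libraries, and each passed with every library left out in turn.

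**Figure D2:**
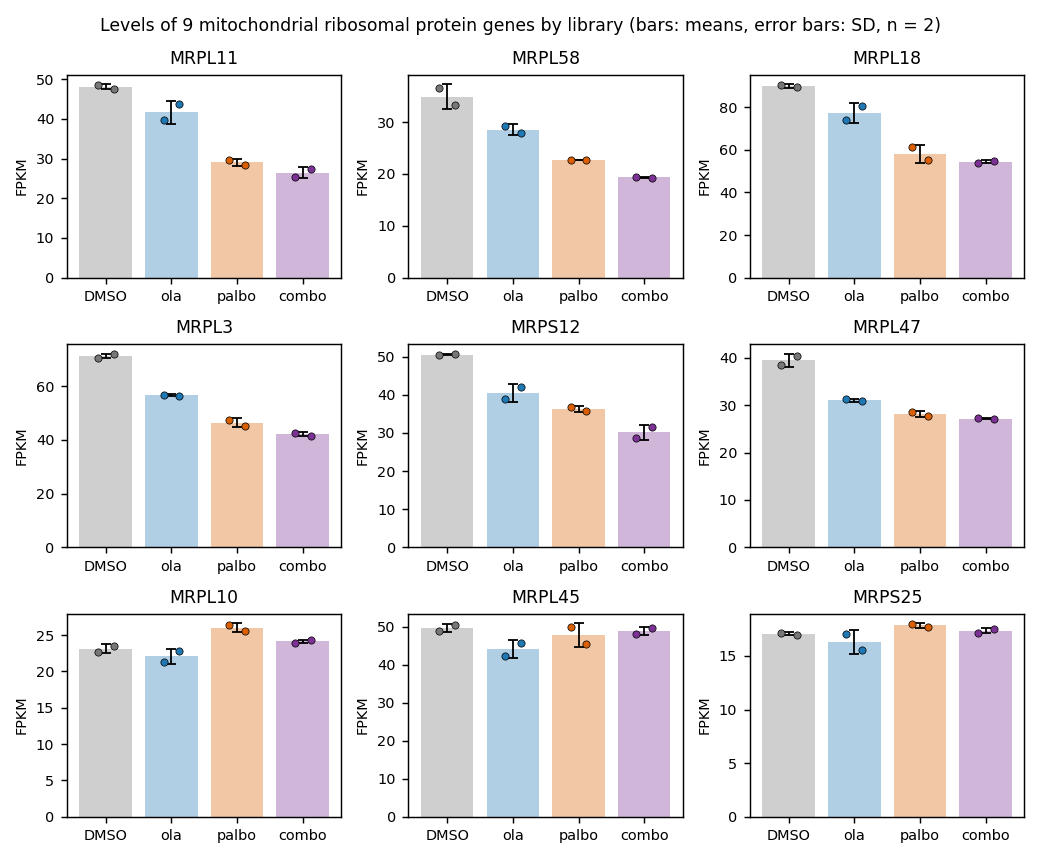
FPKM of 9 genes in each of the 8 libraries (points), with group means as bars and SD as error bars (n = 2); ola is olaparib, palbo palbociclib and combo the combination. MRPL11, MRPL58, MRPL18, MRPL3, MRPS12 and MRPL47 step down across the groups, whereas MRPL10 is highest with palbociclib, at 26.5 and 25.6 FPKM, and MRPL45 and MRPS25 show no difference that passed.

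By subunit, 41 of 49 large subunit genes passed as lower and 1 as higher, with a median log2 fold change of -0.34. In the small subunit 18 of 23 passed as lower and none as higher, with a median of -0.27. Its lowest was MRPS15 (uS15m, which binds the small rRNA early in assembly in bacteria), at 34.5 and 33.9 FPKM in DMSO and 24.0 and 24.3 FPKM with palbociclib, a change of -0.49. No test of the difference between the subunits was made. Proteins with a bacterial counterpart and those specific to mitochondria gave like medians, -0.32 (37 of 43 lower) and -0.33 (22 of 29 lower).

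A few genes stood outside this pattern. MRPL10 (uL10m, the stalk protein that carries MRPL12) was the only one that passed as higher: 22.7 and 23.6 FPKM in DMSO against 26.5 and 25.6 FPKM with palbociclib. Its log2 fold change was 0.16 ± 0.04 (adjusted p = 0.0182), and the call was lost without DMSO replicate 1 (adjusted p = 0.11) and without palbociclib replicate 1 (adjusted p = 0.0956). MRPS25 had 17.1 and 17.0 FPKM in DMSO and 18.0 and 17.7 FPKM with palbociclib, a difference of 0.06 that did not pass. MRPL45, which anchors the mitoribosome to the inner membrane, had 48.8 and 50.4 FPKM in DMSO and 49.9 and 45.5 FPKM with palbociclib, and the groups overlapped. MRPL33 and MRPL57 passed as lower, yet their fold changes turned positive under quantile normalisation. MRPS36 passed as lower, from 20.9 and 19.1 FPKM to 16.8 and 16.5 FPKM (log2 fold change -0.24, adjusted p = 0.00706). Of the 2 genes named for the other subunit, MRPS30 had a change of -0.11 and MRPS18A of -0.17, and neither passed.

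Olaparib alone gave smaller differences. Against DMSO, 24 of 73 genes passed as lower and none as higher, where 10.5% of all genes tested passed as lower and 4.13% as higher. The median log2 fold change was -0.17, against -0.03 over all genes tested, with a range from -0.34 to 0.03. Both olaparib libraries lay below both DMSO libraries in 61 of the 73 genes, a pattern seen in 38.6% of all genes tested. None of the 24 calls passed in every fit that left out 1 library: the count was 0 without either DMSO library or without olaparib replicate 2, and 4 without olaparib replicate 1.

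MRPL47 (uL29m, near the exit of the peptide tunnel; chromosome 3, 179588285 to 179604654) was the lowest with olaparib, at 38.5 and 40.5 FPKM in DMSO and 31.3 and 30.8 FPKM with the drug. Its log2 fold change was -0.34 ± 0.04 (adjusted p = 0.00941). MRPL3 followed, with 56.9 and 56.5 FPKM against 70.7 and 71.9 FPKM in DMSO, a change of -0.32 ± 0.04 (adjusted p = 0.00955). MRPS12 (uS12m, of the decoding centre; chromosome 19, 38930548 to 38933162) had 50.5 and 50.8 FPKM in DMSO and 38.8 and 42.1 FPKM with olaparib, a change of -0.32. The others named by the same rule were MRPS15, MRPS23, MRPL21, MRPS35 and MRPL58, with changes of -0.30, -0.30, -0.30, -0.28 and -0.28. In the 2 subunits the medians were -0.17 for the large (16 of 49 lower) and -0.16 for the small (8 of 23 lower). MRPL11, the gene lowest with palbociclib, had 39.6 and 43.6 FPKM with olaparib, a change of -0.20 that did not pass (adjusted p = 0.0567).

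**Figure D3:**
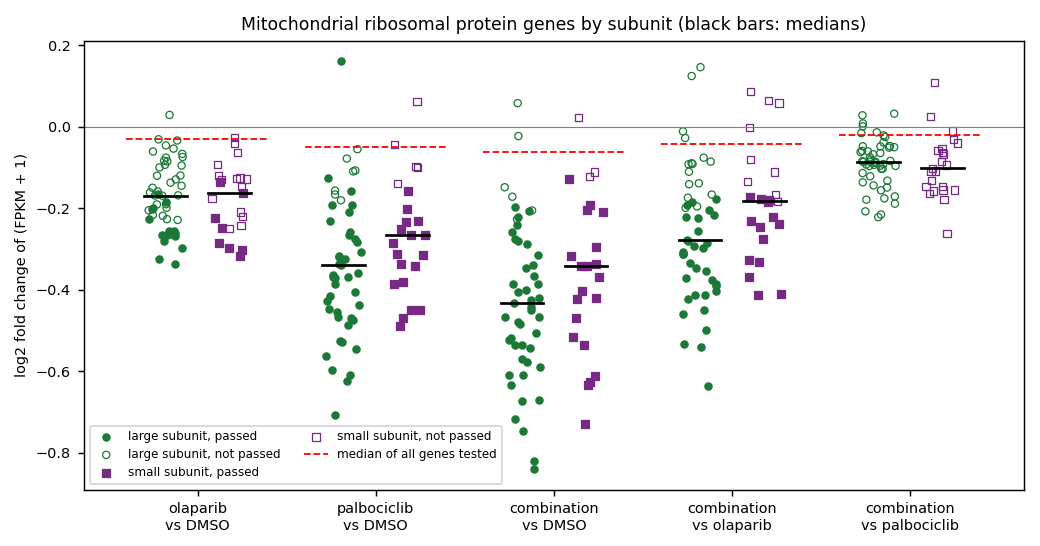
Log2 fold change of (FPKM + 1) for each gene of the large subunit (circles) and small subunit (squares) in 5 comparisons; filled points passed, black bars are subunit medians and the red dashed line is the median of all genes tested. Small subunit medians are -0.16, -0.27 and -0.34 for olaparib, palbociclib and the combination against DMSO, and no gene passed for the combination against palbociclib; MRPS36 is not drawn.

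With both drugs together the falls against DMSO were deepest. Here 64 of 73 genes passed as lower and none as higher, where 35.3% of all genes tested passed as lower and 21.5% as higher. The median log2 fold change was -0.41 against -0.06 over all genes tested. With palbociclib alone these medians were -0.32 and -0.05. Both combination libraries lay below both DMSO libraries in 69 genes (46.9% of all genes tested) and above them in 2 (32.5%). The group means fell in the order DMSO, olaparib, palbociclib, combination in 57 of 73 genes, an order seen in 26.5% of all genes tested.

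MRPL11 was again lowest, at 25.4 and 27.4 FPKM with the combination, a log2 fold change of -0.84 ± 0.06 (adjusted p = 3.82e-05). MRPL58 was at 19.4 and 19.3 FPKM, a change of -0.82 ± 0.05 (adjusted p = 2.78e-05). MRPL3 was at 42.6 and 41.6 FPKM, a change of -0.75, and MRPL18 at 54.0 and 54.8 FPKM, a change of -0.72. From the small subunit, MRPS12 was at 28.8 and 31.5 FPKM, a change of -0.73, and MRPS15 at 20.5 and 23.0 FPKM, a change of -0.63. MRPL1 (uL1m, of the stalk where spent tRNAs leave) and MRPL54 each had a change of -0.67. MRPS34, the most abundant in DMSO, was at 88.8 and 102 FPKM, a change of -0.61 from its 141 and 151 FPKM. The 9 genes that did not pass were MRPL41, MRPL45, MRPL28, MRPL10, MRPS2, MRPS14, MRPS25, MRPL43 and MRPL53, with log2 fold changes from -0.23 to 0.06. MRPL34 and MRPS21 passed as lower, yet MRPL34 turned positive under quantile normalisation and MRPS21 under both quantile normalisation and TPM.

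Summed over the 78 genes, the level was 2453 and 2509 FPKM in the DMSO libraries and 2153 and 2244 FPKM with olaparib. With palbociclib it was 1977 and 1928 FPKM, and with the combination 1769 and 1886 FPKM. The groups did not overlap, and their means came to 88.6%, 78.7% and 73.7% of DMSO for olaparib, palbociclib and the combination. As a share of all FPKM in a library the sum went from 0.830% and 0.849% in DMSO to 0.669% and 0.693% in the combination. The ratio of the summed large subunit to the summed small subunit stayed between 1.99 and 2.14 in all 8 libraries.

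The total FPKM of a library fell along with these genes. Under TPM, which sets every library to the same total, the median of all genes in combination against DMSO moved from -0.06 to 0.06 and that of the mitoribosomal protein genes from -0.41 to -0.30. The share of higher genes among all calls moved from 28.2% to 66.5% for olaparib, from 37.3% to 56.1% for palbociclib, from 37.8% to 57.4% for the combination and from 38.2% to 53.9% for combination against olaparib, and it was 60.2% for olaparib under quantile normalisation. Of the 73 genes, 18, 50, 53 and 41 passed as lower under TPM in these comparisons. Over all 12443 genes tested, 473, 2691, 3014 and 2494 passed as lower under TPM.

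Palbociclib could be compared again in cells that also had olaparib, since combination against olaparib shares no library with palbociclib against DMSO. Both came from the same fit, however, so their calls share the estimate of each gene's spread and are not independent. In that comparison 47 of 73 genes passed as lower and none as higher, where 27.4% of all genes tested passed as lower and 17% as higher. Both combination libraries lay below both olaparib libraries in 60 genes (41.9% of all genes tested) and above them in 3 (30.1%). All 47 had also passed as lower with palbociclib alone, which makes 78.3% of the 60 lower there. Across the 73 genes the fold changes of the 2 comparisons correlated with Pearson r = 0.87 and Spearman rho = 0.85, a description across genes that were measured in 1 line and 1 experiment. Neither the overlap nor the correlation was taken over all genes tested, so neither is shown to be particular to these genes. MRPL11 fell most, from 39.6 and 43.6 FPKM with olaparib to 25.4 and 27.4 FPKM with both drugs, a log2 fold change of -0.64 ± 0.06 (adjusted p = 0.00028). MRPL58 had a change of -0.54, MRPL39 of -0.53, MRPL18 of -0.50 and MRPL14 of -0.46.

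Adding olaparib to palbociclib gave no call. In combination against palbociclib 0 of 73 genes passed in limma, where 0.0161% of all genes tested passed as lower. At an unadjusted p under 0.05, 21 genes were lower and none higher (11.8% and 4.85% of all genes tested). Voom on the recovered reads called 1 gene lower, and 197 of all 12443 genes tested. The fold change was negative in 66 of 73, with a median of -0.09 against -0.02 over all genes tested. MRPS12 had the largest difference, 36.8 and 35.8 FPKM against 28.8 and 31.5 FPKM, a log2 fold change of -0.26 (95% interval -0.39 to -0.13) with an adjusted p of 0.135.

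Whether the 2 drugs together differed from the sum of their separate log2 changes was tested as a departure from additivity, and 0 of 73 genes passed in limma, where 0.00804% of all genes tested passed as lower and 0% as higher. At an unadjusted p under 0.05, 12 genes had a positive departure, which is a smaller fall than the sum, and none a negative one (5.77% and 4.80% of all genes tested), and voom on the recovered reads called none. The median departure was 0.08 against 0.02 over all genes tested, and it was 0.11 over 71 genes for ribosomal proteins of the cytosol. MRPL47 had the largest, 0.29 (95% interval 0.16 to 0.42, adjusted p = 0.271): its olaparib libraries, at 31.3 and 30.8 FPKM, were already close to its combination libraries at 27.3 and 27.1 FPKM. For MRPL11 the departure was 0.07 (95% interval -0.12 to 0.27).

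The 5 genes below the level filter were MRPL38, MRPS28, MRPL46, MRPS18C and MRPS24. MRPL38 was at 0.907 and 0.961 FPKM in DMSO, MRPS28 at 0.982 and 0.801 FPKM, and MRPS18C at 0.664 and 0.619 FPKM. MRPL46 was at 0.856 and 0.711 FPKM in DMSO, 0.738 and 0.627 FPKM with olaparib, 0.333 and 0.292 FPKM with palbociclib, and 0.312 and 0.287 FPKM with the combination. MRPS24 rested on 2 to 14 recovered reads per library. Each had at least 45.1% of its coding positions inside an exon of another annotated gene, on either strand. For MRPS24 that share was 92.2% (mostly the read-through gene URGCP-MRPS24), for MRPL38 94.1%, for MRPL46 64.0% and for MRPS28 53.0%.

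The same held for the next genes up: MRPL53 had all of its coding positions (100%) in exons of CCDC142, which was at 3.19 to 3.56 FPKM, and MRPS17 had 100% in exons of other genes, AC092647.5 among them. The 7 genes with the lowest level in DMSO thus all shared at least 45.1% of their coding positions, yet MRPL12 and MRPL30, with 96.0% and 95.3%, were at 12.2 and 12.4 FPKM. In all, 8 of 78 genes (10.3%) shared over 50% of their coding positions, against 5.72% of 16220 protein-coding genes in the table. Reads in shared exons cannot be assigned to 1 gene without a rule. The labels used here do not state that rule, so the levels of these genes are uncertain. Pseudogenes named after them are annotated for 34 of the 78 genes, 75 in all, of which 24 were in the table. Whether reads from such copies affect these levels was not tested.

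**Figure D4:**
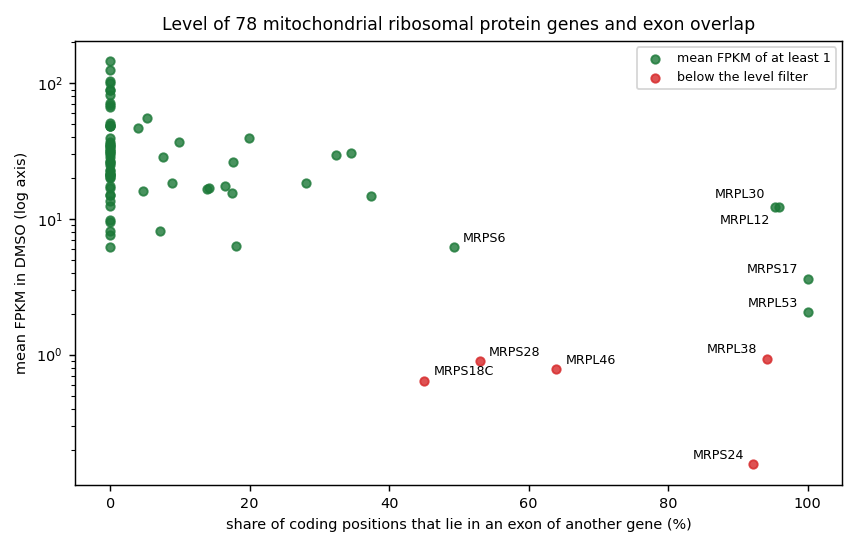
Mean FPKM in the 2 DMSO libraries (log axis) of each of the 78 genes against the share of its coding positions that lie in an exon of another gene (%); red points are the 5 genes below the level filter. The 7 lowest genes all have a share of at least 45.1%, whereas MRPL12 and MRPL30 have 96.0% and 95.3% at over 12 FPKM.

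Of the 78 genes, 17 start within 1000 bases of a protein-coding gene on the opposite strand. MRPL46 and MRPS11 are each other's neighbour, 34 bases apart on chromosome 15. MRPS11 (uS11m) had 6.50 and 6.11 FPKM in DMSO and 5.34 and 5.37 FPKM with palbociclib.

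Genes that work with these proteins were taken from lists chosen with earlier results of these data known. For scale, 31.4% of all genes tested passed as lower and 18.7% as higher with palbociclib. With the combination the shares were 35.3% and 21.5%. Of 6 genes with other names, 5 for mitoribosome subunits and OXA1L for the inner membrane insertase that binds the mitoribosome, 4 passed as lower with palbociclib and 5 with the combination, and OXA1L did not pass (0.08 and 0.07). GADD45GIP1 (also called CRIF1) changed by -0.42 and -0.60. Of 26 assembly factors, which process and modify the rRNAs and join the subunits, 12 passed as lower and 1 as higher with palbociclib, whereas the combination gave 15 and 0. The methyltransferases of the large rRNA MRM2 (-0.60 and -0.71) and MRM1 (-0.53 and -0.64) were lowest, and MTERF3 and MALSU1 also passed (-0.44 and -0.36 with palbociclib). MPV17L2 was the one higher with palbociclib, at 0.21, and its call was lost without either DMSO library and without either palbociclib library.

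Of 13 translation factors, 6 passed as lower and 1 as higher with palbociclib, whereas the combination gave 9 and 1. The elongation factor GFM1 changed by -0.41 and -0.57 and the initiation factor MTIF2 by -0.40 and -0.49, whereas GFM2, which acts in ribosome recycling, passed as higher (0.25 and 0.23). Of 20 genes for mitochondrial transcription and RNA handling, 13 passed as lower and 1 as higher with palbociclib, and 16 and 1 with the combination. SLIRP, the partner of LRPPRC in stabilising mitochondrial mRNAs, was lowest. It went from 42.1 and 42.5 FPKM in DMSO to 24.8 and 26.7 FPKM with palbociclib and 22.4 and 25.9 FPKM with the combination, changes of -0.69 and -0.79. TFAM, which packages mitochondrial DNA and activates its promoters, changed by -0.41 and -0.57. Among all genes tested 10.5% passed as lower and 4.13% as higher with olaparib alone. For the 4 lists in this order the counts lower with olaparib were 2 of 6, 4 of 26, 4 of 13 and 9 of 20. None passed as higher. Over the alternative settings the counts lower ran from 0 to 4, 0 to 8, 0 to 8 and 0 to 14 with olaparib. With palbociclib they ran from 1 to 4, 6 to 16, 5 to 7 and 9 to 14. With the combination they ran from 3 to 5, 8 to 17, 6 to 9 and 13 to 16, and up to 4 assembly factors passed as higher.

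**Figure D5:**
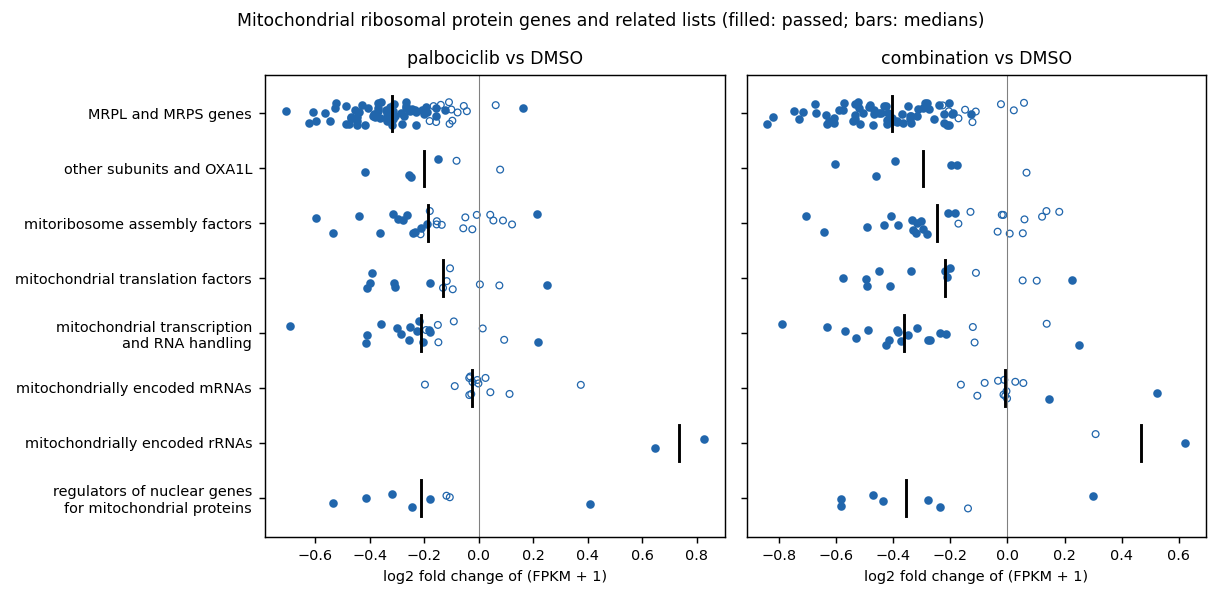
Log2 fold change of (FPKM + 1) for the 73 mitoribosomal protein genes tested and for 7 lists of related genes, with palbociclib (left) and the combination (right) against DMSO; filled points passed and bars are medians. The medians of the mitoribosomal protein genes are -0.32 and -0.41, and the mitochondrially encoded mRNAs have medians of -0.02 and -0.01.

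The RNAs that the mitochondrial genome itself encodes did not fall with their ribosomal proteins. Of the 13 mitochondrially encoded mRNAs none passed as lower in any treatment against DMSO in limma. Among all genes tested 10.5%, 31.4% and 35.3% passed as lower for olaparib, palbociclib and the combination. The medians of the 13 mRNAs were 0.02, -0.02 and -0.01 in this order. MT-ATP8 passed as higher with olaparib (0.57) and the combination (0.52), and MT-CO1 with the combination (0.15), and these 3 calls were each lost in at least 4 of the fits with 1 library left out or another setting. Over the alternative settings up to 2 mRNAs passed as lower with the combination and up to 5 as higher. The rRNAs MT-RNR1 and MT-RNR2, the RNA of the small and the large subunit, were higher with palbociclib. MT-RNR2 had 3427 and 3651 FPKM in DMSO, 3897 and 3886 FPKM with olaparib, 5567 and 5502 FPKM with palbociclib and 5535 and 5366 FPKM with the combination, and it passed with palbociclib (0.65 ± 0.05, adjusted p = 0.0001) and the combination (0.62), and both calls were lost without a level filter (adjusted p = 0.304 and 0.299). MT-RNR1 had 558 and 595 FPKM in DMSO and 794 and 1315 FPKM with palbociclib. Its change was 0.82, and 0.46 without palbociclib replicate 2. The call was lost without either DMSO library and without a level filter (adjusted p = 0.0722 in limma). MT-RNR1 did not pass with the combination. Libraries were made from polyadenylated RNA, so these values count the rRNA that came through that selection.

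Regulators known to act on nuclear genes for mitochondrial proteins were measured as well. Of 8, 5 passed as lower (3 to 6 over the alternative settings) and 1 as higher with palbociclib. Among all genes tested 31.4% and 18.7% did. With the combination 6 passed as lower and 1 as higher, where 35.3% and 21.5% of all genes tested did. Olaparib alone gave 3 lower and none higher, where 10.5% and 4.13% of all genes tested passed, and the count of 3 changed over the alternative settings. NRF1 had 6.28 and 6.71 FPKM in DMSO and 4.05 and 4.28 FPKM with palbociclib, a change of -0.54. The coactivators PPARGC1B and PPRC1 changed by -0.41 and -0.32. MYC passed as higher, from 93.8 and 92.8 FPKM to 125 and 123 FPKM (0.41 ± 0.05, adjusted p = 0.000909). YY1 changed by -0.18, and the ETS factor GABPA by -0.11, which did not pass.

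The ribosomal proteins of the cytosol, set beside those of the mitochondrion, gave other counts. Of 71 cytosolic ribosomal protein genes tested, 15 passed as lower and 3 as higher with palbociclib, at a median of -0.04. Over all genes tested, 31.4% passed as lower and 18.7% as higher there. For the combination 17 passed as lower and 4 as higher, at a median of -0.02, where 35.3% and 21.5% of all genes tested did. With olaparib 12 passed as lower and none as higher, with a median of -0.08, where 10.5% and 4.13% of all genes tested did. The difference between the 2 families was not tested.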

How the data were processed

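Polyadenylated RNA of 8 A2780 libraries (2 per group) was measured. NEBNext Ultra libraries were prepared, per the labels' protocols. CASAVA 1.8, STAR 2.5.1b, HTSeq 0.6.0, GRCh38 and hg38 are named with no role, per the submitters' processing notes, and no strand setting is stated there. The authors deposited FPKM values for 31721 genes. With GENCODE v29 exon lengths, 28635 genes (90.3%) gave whole reads in all libraries within 0.01 reads, which gave the depths, and the scaling of the deposited FPKM matched median-of-ratios size factors.

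All 12443 genes with a mean of at least 1 FPKM were fitted on log2(FPKM + 1), a scale that understates changes of low genes, with limma 3.58.1 (R 4.3.3): 1 mean per group, trended empirical Bayes moderation, 4 residual and 3.01 prior degrees of freedom, two-sided tests, Benjamini-Hochberg adjustment over all genes. The fit was tested on simulated data. An exact permutation test of 2 against 2 libraries cannot go below 0.333. Named genes are the 8 lowest and 8 highest fold changes per treatment among those that passed with groups that did not overlap (5 for the other comparisons), the 5 highest and 5 lowest levels in DMSO, those below the filter, those named for the other subunit, and counts of 5 or fewer; of each list, up to 4 each way. The genes and lists were chosen with earlier results of these data known.

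Alternatives were a pseudocount of 0.1, no level filter, a filter of 5 FPKM, quantile normalisation, TPM, median-of-ratios rescaling, voom on recovered reads, a replicate block, a fit of only the groups compared, and each library left out in turn. Median-of-ratios rescaling repeated the deposited scaling, so it gave the values of the main fit and is no separate check.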

Additional observations from a re-analysis of the deposited data

How the results depend on the processing

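The number of genes lower with olaparib, 24, was 8 without a level filter, 14 under quantile normalisation and 40 with voom on recovered reads, and from 0 to 29 with 1 library left out; when a group is left with 1 library, that library is assumed to vary like the others. Genes higher with palbociclib, 1, were 3 under quantile normalisation, 2 under TPM and 0 to 1 with 1 library left out. Genes higher with the combination against DMSO, 0, were 4 under quantile normalisation and 2 under TPM. Genes higher in combination against olaparib, 0, were 4 under quantile normalisation, 3 under TPM, 1 with a filter of 5 FPKM, 1 with voom, and 0 to 1 with 1 library left out. In combination against palbociclib voom called 1 gene lower, and 197 of all 12443 genes tested. Over all genes tested, those lower with olaparib were 1307 in the main fit, 398 under quantile normalisation and 2099 with voom. Those higher with palbociclib were 2324, 2728 and 3437 in the main fit, under quantile normalisation and TPM. The combination against DMSO gave 2672, 3179 and 4068, and combination against olaparib 2110, 2557 and 2913. No such count was made for other level filters, the replicate block or left-out libraries. The summed level under TPM was 92.6%, 84.5% and 81.2% of DMSO for olaparib, palbociclib and the combination. The cause of these differences was not tested.

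The other counts of mitoribosomal protein genes stayed within 1.5 times. Those lower ran from 43 to 64 with palbociclib, 53 to 65 with the combination and 34 to 51 in combination against olaparib. Over all genes tested, 3136, 3604 and 2758 were lower under quantile normalisation, and 4332, 4692 and 3745 with voom. For the lists of related genes, 132 of the recomputed counts moved by more than 1.5 times or went to or from 0, and 582 did not. Of the called genes, 46 of 61, 56 of 64 and 39 of 47 passed with each library left out in turn in these comparisons, and 0 of 24 with olaparib. None of the mitoribosomal protein genes named for the lowest or highest fold changes turned its direction under these alternatives, and MT-CO1 in the combination went to 0 under quantile normalisation.

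No shared deviation of same-numbered libraries was seen: their deviations correlated between -0.05 and 0.03 across genes. These correlations cannot show whether same-numbered libraries were prepared together. With a replicate block the genes lower were 31, 61, 63 and 49 for olaparib, palbociclib, the combination and combination against olaparib, with 1 higher for palbociclib and 0 in the others, and 0 in both directions for combination against palbociclib and the departure from additivity. Depth limits the 5 genes under the filter and MRPL53 most: MRPS24 rested on as few as 2 reads in a library, MRPS28 on 35 and MRPL53 on 43.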
